A study of Mus musculus with 48 samples.

Results

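The regions described here are the merged ATAC-seq peaks that were called in the CMV pool and not in the CGRP pool, named CMV-only peaks below. ATAC-seq maps open chromatin: the Tn5 transposase inserts sequencing adapters where DNA is accessible, and a summit is the highest point of a called peak. The members were chosen by the positions of called summits: a merged peak, which reaches 250 bp to either side of its centre, counted as CMV-only when it held at least 1 summit of the CMV pool and no summit of the CGRP pool, whatever the mixed pool showed. This rule took 25829 of 114043 merged peaks on build mm9, or 22.6%. Summits of both pools lay in 75200 merged peaks, named shared peaks below, a CGRP but no CMV summit lay in 10375, and 2639 held a mixed-pool summit only. The pools differed in the number of summits called, 251512 in the CMV pool and 172434 in the CGRP pool. The part of this in the sizes of these sets was not tested. When each pool was cut to its 100000 top-scoring summits, 13009 of the CMV-only peaks were still chosen. The name states where a summit was called, not that the site was closed in the CGRP pool.

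The tumors came from mice in which Cre recombinase deleted Trp53, Rb1 and p130 and switched on the R26mG reporter, so that all groups share the genotype Trp53-/-;Rb1-/-;p130-/-;R26mG. Cre came from adenovirus. In Ad-CMV-Cre the CMV promoter, active in many cell types, drove it, and in Ad-CGRP-Cre the CGRP promoter, active in neuroendocrine cells of the lung. The CMV pool joined 19 Ad-CMV-Cre libraries of preparation batch 1 (10 liver metastases, 9 lung tumors; 8 labelled Nfib amplified), of which 15 were marked low in ATAC-seq enrichment. The CGRP pool joined 14 Ad-CGRP-Cre libraries of batch 2 (7 liver metastases, 7 lung tumors; 1 labelled Nfib amplified), and the mixed pool joined 11 Ad-CMV-Cre and 4 Ad-CGRP-Cre libraries of batch 3. Titles of the 19 CMV-pool libraries carry 8 tumor codes, and 4 titles occur more than once, so libraries of a pool may share tumors or animals. Of the 19, 15 are marked as a re-analysis, and the labels do not state whether the same preparation was sequenced again. The CMV pool spans sequencing batches 1 and 3, the CGRP pool is of sequencing batch 2 and the mixed pool of sequencing batch 3. Between the CMV and CGRP pools, vector cannot be told apart from preparation batch or sequencing batch. The CMV comparison set 8 Nfib-amplified Ad-CMV-Cre libraries (5 liver metastases, 1 lymph node metastasis, 2 lung tumors) against 7 not amplified (7 lung tumors). The titles of the amplified libraries start with 2 codes and those of the others with 3, so libraries of a group may not be independent, and the p-values below would then be too small. The CGRP comparison set 7 Ad-CGRP-Cre liver metastases against 11 Ad-CGRP-Cre lung tumors, with 3 and 5 such codes. All 7 liver metastases were of preparation batch 2, and the lung tumors were 7 of batch 2 and 4 of batch 3. Tissue and preparation batch are thus not fully separate in the CGRP comparison. Fitted values for each peak were at hand, without values per library, so depth per library is unknown and every change below is the authors' estimate with its standard error (SE). The direction of each change rests on the names of the tables. The description of 1 not amplified library does not list its table.

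Small cell lung cancer is a neuroendocrine cancer that in mice arises after loss of p53 and of RB-family proteins. NFIB, encoded by Nfib, is a transcription factor whose gene is recurrently amplified in tumors of this model, and NFIB is known there for opening chromatin at many distal regulatory sites and for promoting metastasis. Open sites away from gene starts are in general more specific to a cell type or state than promoters, which are open in most cells. Which genes lie at the CMV-only peaks is not analysed here.

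CMV-only peaks were weaker sites than shared peaks, and about as weak as the other peaks missed by a pool. Their mean normalised count, averaged by the authors over libraries, had a median of 10.5 (quartiles 5.81 and 17.1), against 21.2 over all merged peaks and 32.4 over shared peaks. Peaks with a CGRP but no CMV summit had a median of 11.98, and peaks with a mixed-pool summit only 8.46, so a low mean count was not particular to CMV-only peaks. In the lowest decile of mean count 7096 of 11405 merged peaks (62.2%) were CMV-only, and in the highest decile 25 of 11405 (0.219%). A mean count of at least 50 was reached by 408 CMV-only peaks (1.58%), against 23.2% of all merged peaks. The CMV-pool summits in CMV-only peaks were also lower in the authors' score, read here as −log10 of the q-value. The median of the best summit was 13.8 (quartiles 5.78 and 33.2), against 31.2 in shared peaks. Most held a single CMV summit (23893), while 1871 held 2 and 65 held 3 or more. The mean count is the same in the tables of both comparisons, so the CGRP libraries in which no summit was called enter it along with the CMV libraries.

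The mixed pool, whose summits helped to build the merged list but took no part in the choice of members, had a summit in 17433 CMV-only peaks. This is 67.5% (95% Wilson interval 66.9% to 68.1%, which covers counting error only), against 98.2% of shared peaks and 78.0% of peaks with a CGRP but no CMV summit. Over all other merged peaks it was 95.9%, which includes the 2639 chosen by a mixed-pool summit alone. The share rose with the mean count up to the seventh decile (92.1%), and was 83.7% in the ninth and 84.0% in the tenth. It was 82.0% or more of CMV-only peaks in the deciles from the third to the tenth. At like mean count it stayed lower than elsewhere: in the fifth decile, 89.4% of CMV-only peaks and 97.3% of the other merged peaks held a mixed-pool summit. The 8396 CMV-only peaks without a mixed-pool summit were the weakest, with a median mean count of 4.83 against 13.3 for the 17433 with such a summit. Of the CMV-only peaks with a mixed-pool summit, 8690 were centred by the authors on the mixed-pool summit and 8743 on the CMV-pool summit.

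Values at the edges of the rule are given as a description, in log2 fold changes of Nfib-amplified over not amplified CMV libraries. The 172 CMV-only peaks whose nearest CGRP summit lay just outside the peak, over 250 and up to 300 bp from its centre, had a median of 1.37 (quartiles 0.44 and 2.13). The 452 shared peaks whose nearest CGRP summit lay just inside, over 200 and up to 250 bp from the centre, had a median of 0.92 (quartiles 0.03 and 1.91). The 624 CMV-only peaks whose best CMV score was under 2 had a median of 1.26 (quartiles 0.48 and 2.06), and the 415 shared peaks whose best CGRP score was under 2 had 2.02 (quartiles 1.02 and 2.92). The quartile ranges overlapped at the edge by distance. The sets by score lie at different edges, the first beside peaks without a CMV summit and the second beside CMV-only peaks. They also differed in median mean count (3.91 and 12.4) and in the share with a mixed-pool summit (24.5% and 86.7%). They are therefore not set against each other.

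In Nfib-amplified CMV libraries, CMV-only peaks were mostly more accessible. Of the 25814 tested by the authors, 16800 were raised at an adjusted p under 0.05 (65.1%), against 34.3% of all peaks tested. A further 89 were lowered (0.345%), against 12.2% of all peaks tested, and 8925 passed in neither direction. The median log2 fold change, amplified over not amplified, was 2.53 (quartiles 1.55 and 3.42; median SE 0.90), against 0.60 (quartiles -0.31 and 1.88; median SE 0.59) over all merged peaks. Among raised CMV-only peaks the median was 3.13 (median SE 0.89), or 8.74-fold, against 2.44 (median SE 0.74) among all raised peaks. CMV-only peaks made up 43.0% of all raised peaks and 0.639% of all lowered ones.

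These counts describe the set and do not stand as independent support, since the rule shares libraries with the comparison. Of the 15 CMV libraries compared, 4 also belong to the CMV pool (2 amplified, 2 not), and 11 belong to the mixed pool. Amplified libraries made up 8 of the 19 in the CMV pool and 1 of the 14 in the CGRP pool, and the part of that imbalance in the result was not tested. Amplification and tissue were not separate either: 6 of the 8 amplified libraries were metastases and all 7 others were lung tumors. Against the median of 0.60 over all merged peaks, 12278 CMV-only peaks were raised (47.6%) and 307 lowered (1.19%), beside 19.9% and 25.5% of all peaks tested.

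**Figure D1:**
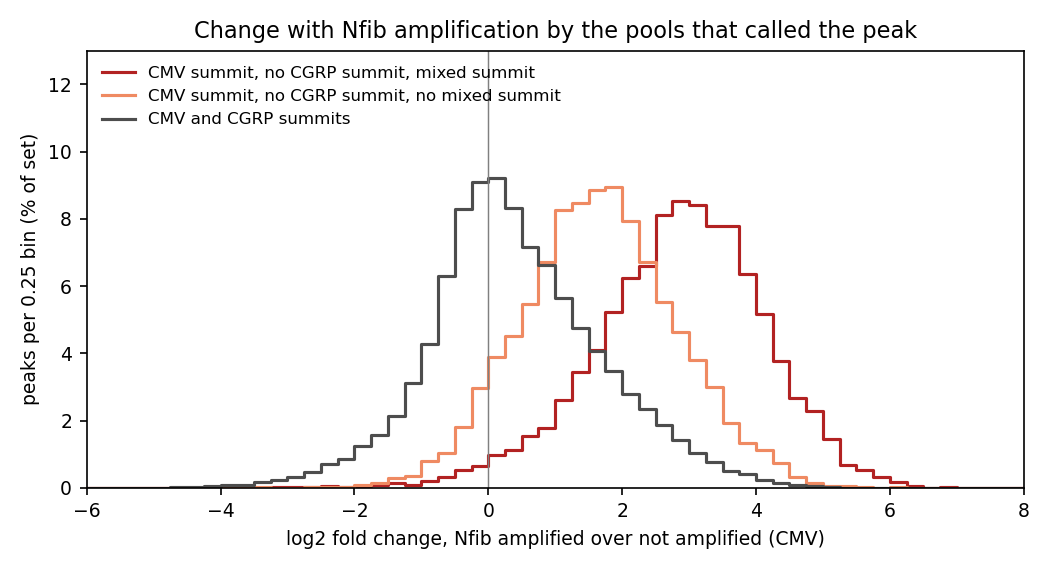
Distribution of the log2 fold change, Nfib amplified over not amplified CMV libraries (x axis), as the percentage of each set of merged peaks per bin of 0.25 (y axis). CMV-only peaks with a mixed-pool summit (median 2.93) and without a mixed-pool summit (median 1.64) lie to the right of shared peaks (median 0.30).

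Gains were larger at the members with a mixed-pool summit. With a mixed-pool summit, 13822 of 17428 tested CMV-only peaks were raised (79.3%), and the median log2 fold change was 2.93 (quartiles 2.09 and 3.70). Without a mixed-pool summit, 2978 of 8386 were raised (35.5%), with a median of 1.64 (quartiles 0.89 and 2.40). The mixed pool holds 6 amplified and 5 not amplified libraries of the same comparison, and the part of this in the gap was not tested. Nearly all CMV-only peaks lay above 0 in estimate (24808, or 96.0%, against 66.2% of all merged peaks), including 89.6% of those that passed in neither direction. Those that passed in neither direction had a median of 1.22 at a median SE of 0.92 and a median mean count of 5.46. At the median SE of a CMV-only peak, a log2 change under 1.76 stays below the limit of an unadjusted test. In the second test of the authors, set against a log2 change of 0.5 in size, 11488 CMV-only peaks were raised and 23 lowered, where 19.0% of all peaks tested were raised and 4.64% lowered.

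At like mean count, CMV-only peaks were raised more often than shared peaks in every decile. In the fifth decile (mean count 16.4 to 21.2), 2320 of 2683 CMV-only peaks were raised (86.5%), against 28.7% of shared peaks. In the lowest decile, 28.2% of CMV-only peaks and 6.31% of shared peaks were raised. Among the 25 CMV-only peaks of the highest decile, 14 were raised (56.0%) with a median log2 fold change of 0.54, against 25.3% of shared peaks. The subset without a mixed-pool summit behaved otherwise above the fourth decile: the share raised was 59.0% in the fourth and 25.7% in the ninth, where 30.6% of shared peaks were raised. The mean count covers CGRP libraries too, so equal mean counts need not be equal counts in CMV libraries, and the part of this in the gaps was not tested.

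**Figure D2:**
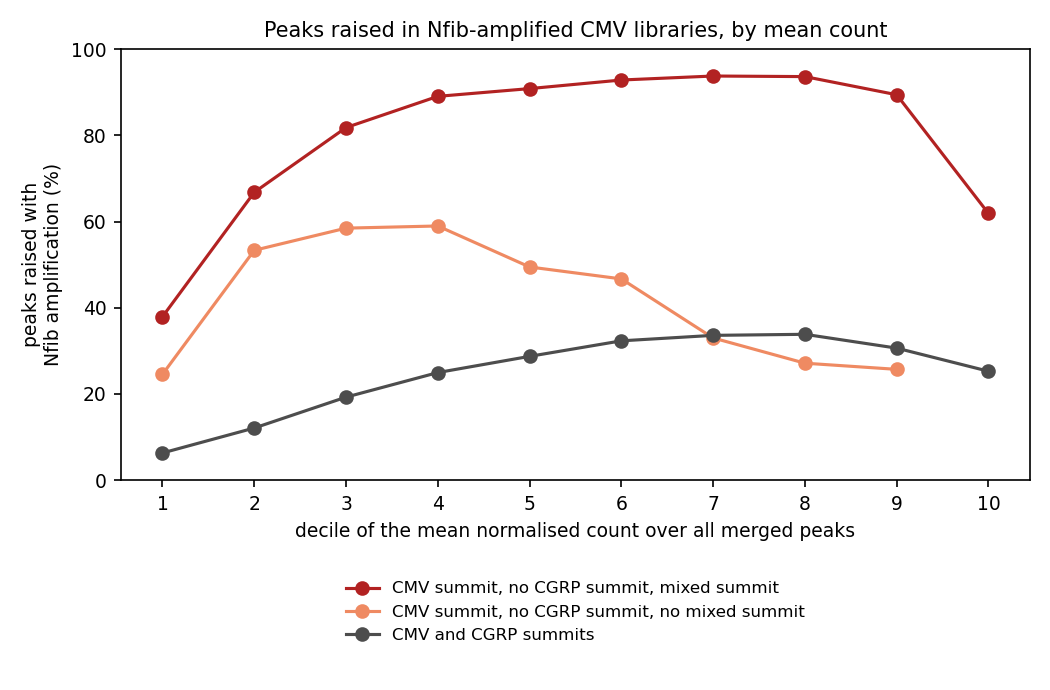
Percentage of tested merged peaks raised in Nfib-amplified over not amplified CMV libraries (y axis) by decile of mean normalised count over all merged peaks (x axis). CMV-only peaks with a mixed-pool summit reach 93.8% in the seventh decile, and those without one fall below shared peaks from the seventh decile on; the point of 4 peaks without a mixed-pool summit in the highest decile is not drawn.

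Stronger CMV-pool summits went with larger gains. Among CMV-only peaks in the lowest quartile of CMV score (median score 3.68), 33.0% were raised and the median log2 fold change was 1.48. In the highest quartile (median score 56.1), 91.3% were raised, 2 peaks were lowered and the median was 3.40. The score belongs to the rule, so this is a description. The member with the highest score, 431, lay at chr12:51120895-51121395, and the authors' deposited table gave it 3.60 (SE 0.98, adjusted p = 0.001282). The next by score, chr2:43672653-43673153 (421) and chr2:134099451-134099951 (421), had 3.56 (SE 0.96) and 3.66 (SE 1.01) in the authors' deposited table. All 3 also held a mixed-pool summit, and none passed in the CGRP comparison, with adjusted p from 0.7891 to 0.9374 in the authors' deposited table.

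The 5 raised members with the largest changes at a mean count of at least 21.2 lay on 5 chromosomes. The first, chr3:74250093-74250593, had a log2 fold change of 7.56 (SE 0.82) in the authors' deposited table, lay 38149 bp from the nearest CGRP summit, and had no other merged peak closer than that. The others, chr14:79582960-79583460, chr2:112634472-112634972, chr13:4330747-4331247 and chr12:79199686-79200186, had 6.83, 6.42, 6.41 and 6.41 (SE 0.85 to 0.93) in the authors' deposited table. The distance of these 4 to the nearest CGRP summit was 1940, 5591, 12741 and 42825 bp. Each of the 5 held a single CMV summit with a score of 73.0 or more and a single mixed-pool summit.

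The 89 lowered members lay close to CGRP summits, at a median distance of 722 bp against 6996 bp for raised members. They had a low median CMV score of 4.66 against 22.0. A shared peak lay within 5 kb of 74 of them, and it was itself lowered in 50 cases (67.6%) and raised in 3. The 5 lowered members with the largest changes at a mean count of at least 21.2 lay 253 to 589 bp from a CGRP summit. In the authors' deposited table they had log2 fold changes of -2.38 (SE 0.49, chr2:24575661-24576161), -1.92 (SE 0.50, chr2:27269630-27270130), -1.72 (SE 0.40, chr7:54213084-54213584), -1.63 (SE 0.38, chr15:37363176-37363676) and -1.55 (SE 0.30, chr8:24290254-24290754). Of these, the peak on chromosome 2 from 27269630 held a mixed-pool summit and the other 4 did not. The CGRP estimates of these 5 in the authors' deposited table lay between -0.98 and 0.13.

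The member with the highest mean count, 332, lay close to a CGRP summit too. It stood at chr14:123381770-123382270, 530 bp from a CGRP summit, and the authors' deposited table gave it a CMV change of 1.10 (SE 0.15, adjusted p = 4.936e-11) and a CGRP change of -0.07 (SE 0.13). It was chosen after its values were seen.

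The nearest CGRP summit lay at a median of 7668 bp from the centre of a CMV-only peak (quartiles 2411 and 22323). The rule allows no CGRP summit within 250 bp, so part of this distance is set by the choice. Peaks with a mixed-pool summit only, which also lack a CGRP summit, had a median of 2819 bp. Within 500 bp of the centre lay a CGRP summit for 465 members (1.80%), and between 500 bp and 1 kb for another 2458 (9.52%). Over 100 kb separated 1082 members (4.19%) from any CGRP summit. The share raised in the CMV comparison was 49.0% within 500 bp and 72.8% between 1 and 5 kb. Between 20 and 100 kb it was 58.1%, and beyond 100 kb 48.7%. Members at the largest distances were also the weakest, with a median mean count of 5.80 beyond 100 kb against 13.4 within 500 bp. None of the 1082 members beyond 100 kb was lowered.

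CMV-only peaks stood somewhat apart from other merged peaks and next to each other. The nearest other merged peak lay at a median of 5406 bp between centres (quartiles 1890 and 12284), against 4125 bp (1440 and 9505) over all merged peaks. It was farther than 20 kb for 12.6% of CMV-only peaks and for 8.35% of all merged peaks. That nearest peak was itself CMV-only for 41.5% of members, against 16.7% of the other merged peaks. Along the chromosomes, members fell into 15174 runs of consecutive merged peaks that were all CMV-only. Single members formed 10423 of these runs, and 725 runs held 5 members or more, with 5457 members in all (21.1%). Members in runs of 10 or more were weaker (median mean count 6.34, 55.3% raised, none lowered) than single ones (12.7, 67.8% raised, 75 lowered).

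The longest run was on chromosome 12 from 43441922 to 44386774, with 32 consecutive members over 944853 bp. Of these, 22 were raised and 19 held a mixed-pool summit, and the median change was 2.67. Next came a run of 25 on chromosome 18 from 29070951 to 29367412, with 14 raised and a median of 2.46. No member of these runs was lowered. A run of 24 on chromosome 7 from 76638170 to 76990070 had 5 raised, a median of 1.00 and a median mean count of 3.27. Runs of 24 also occurred on chromosome 18 from 59766522 to 60539850 and chromosome 11 from 39405235 to 40271560, where 7 and 8 were raised.

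Shared peaks were raised more often beside raised CMV-only peaks than beside others. A shared peak lay within 5 kb of 7854 members, and 36.7% of these neighbors were raised and 11.1% lowered in Nfib-amplified libraries. Around shared peaks themselves, the nearest other shared peak within 5 kb was raised in 24.4% and lowered in 16.0% of 31977 cases. Beside raised members, 45.4% of 5180 neighbors were raised, and their median change was 0.93 (quartiles 0.09 and 1.90). Beside members that passed in neither direction, 20.3% of 2595 neighbors were raised, with a median of 0.09. A raised shared peak had a raised shared neighbor in 46.8% of cases, about the share beside raised members.

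A like relation was seen over megabases. In 1838 windows of 1 Mb with at least 10 merged peaks, at least 5 of them not CMV-only, the share of CMV-only peaks and the median log2 fold change of the remaining peaks had a Spearman rho of 0.70 (Pearson's r = 0.63). These values are a description across windows that share libraries, and windows are not replicates. The remaining peaks are not shared peaks alone: they include peaks with a CGRP but no CMV summit. Over the merged list, those had a median change of -0.72, with 4.24% raised and 31.7% lowered. The part of this mix in the rho and in the values by quartile was not tested. In the quartile of windows with the smallest shares (up to 9.52%), 12.7% of the other peaks were raised and 24.1% lowered. In the quartile with the largest shares (34.9% or more), 38.2% were raised and 6.28% lowered. How large the members' own gain was went less closely with that of their surroundings, with a rho of 0.19 over 1493 windows with at least 5 members.

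**Figure D3:**
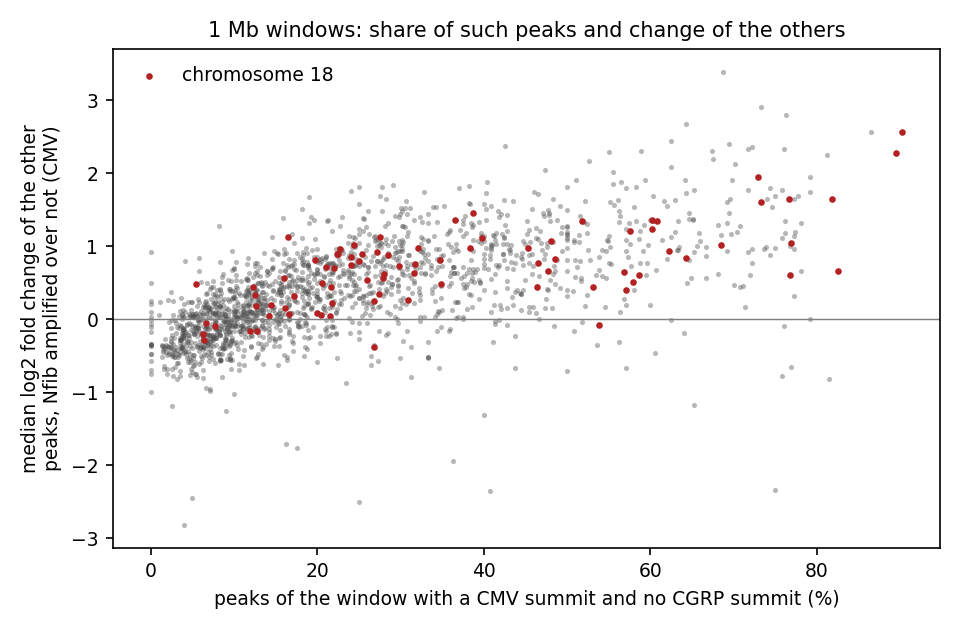
Each point is a 1 Mb window; the x axis gives the percentage of its merged peaks that are CMV-only and the y axis the median log2 fold change, Nfib amplified over not amplified CMV libraries, of its other merged peaks. Windows with larger shares lie higher (rho 0.70 over 1838 windows), and red points are windows of chromosome 18.

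Among 1861 windows with at least 10 merged peaks, the share of CMV-only peaks had a median of 19.0% (quartiles 9.59% and 36.1%). It was 50% or more in 240 windows and 0 in 21. All peaks were CMV-only in 3 windows: on chromosome 5 from 57 to 58 Mb (13 peaks, 6 raised), chromosome 14 from 85 to 86 Mb (11 peaks, 7 raised) and chromosome 5 from 70 to 71 Mb (11 peaks, 5 raised). Chromosome 16 from 83 to 84 Mb had 18 of 19 (7 raised) and chromosome 1 from 148 to 149 Mb 12 of 13 (5 raised). No member was lowered in these 5 windows. The median log2 fold change of their members was between 1.82 and 2.63.

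By chromosome, the share of merged peaks that were CMV-only differed widely. Chromosome 18 had the highest, 2182 of 6163 (35.4%, Wilson interval 34.2% to 36.6%), followed by chromosome X with 269 of 831 (32.4%, 29.3% to 35.6%). The lowest were chromosome 11 with 833 of 6481 (12.9%, 12.1% to 13.7%) and chromosome 9 with 956 of 6161 (15.5%, 14.6% to 16.4%). Peaks with a CGRP but no CMV summit ran the other way at these ends, with 6.62% on chromosome 18, 6.14% on chromosome X and 9.94% on chromosome 11. Among all CMV-pool summits, merged or not, 58.3% on chromosome 18 had no CGRP summit within 250 bp, against 59.5% on chromosome 16, 55.4% on chromosome 3, 54.8% on chromosome X and 36.2% on chromosome 11. The merged list held 12.97% of the CMV summits of chromosome X, 13.9% of those of chromosome 4 and 6.35% of those of chromosome 19, against 40.5% to 55.9% on the other chromosomes, so the shares of these 3 rest on a smaller part of their summits.

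**Figure D4:**
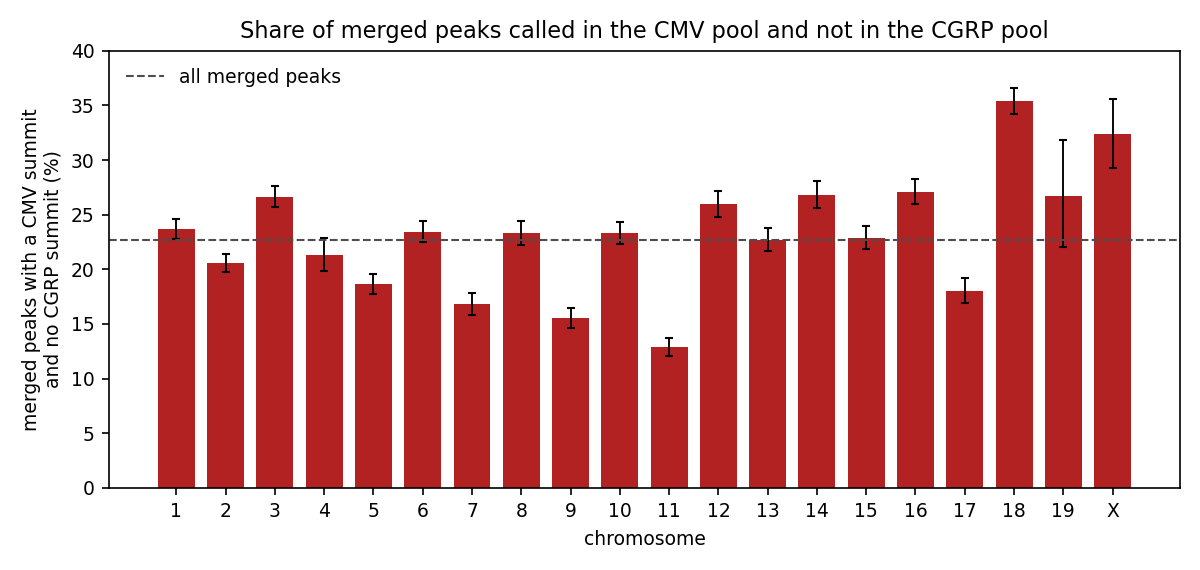
Percentage of the merged peaks of each chromosome that are CMV-only (y axis; bars, with 95% Wilson intervals that cover counting error only), by chromosome (x axis). Chromosomes 18 (35.4%) and X (32.4%) lie above and chromosome 11 (12.9%) below the dashed line of all merged peaks (22.6%).

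Chromosome 18 also stood out in how weak its CMV-only peaks were. Their median mean count was 7.51, against 9.70 to 12.5 on the other chromosomes, and 55.0% had a mixed-pool summit, against 64.0% to 77.1% elsewhere. Of its members 58.6% were raised, below the 65.1% of all CMV-only peaks. Over all chromosomes 25.2% of the other merged peaks were raised, against 32.6% on chromosome 18. Weak CMV-pool summits (score under 5) had been kept in the authors' merged list more often there, in 25.5% of cases against at most 23.6% on any other chromosome. The 23.6% was on chromosome 11, which had the lowest share of CMV-only peaks (12.9%). On chromosome X, with the second-highest share (32.4%), 3.75% of weak summits were kept. The part of such keeping in the share of CMV-only peaks was not tested. The 5 windows with the most members were all on chromosome 18, from 29 to 30 Mb (74 of 82 peaks) and from 48 to 49 and 50 to 53 Mb (56 to 63 each). The highest shares of raised members were on chromosomes 9 (74.9%) and 8 (73.3%), and the lowest on chromosomes 19 (46.4% of 84) and 11 (57.3%). The other merged peaks were raised in 24.7% of cases on chromosome 9 and 26.9% on chromosome 8. On chromosomes 19 and 11 it was 14.3% and 13.9%, so low shares there were not particular to members.

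In CGRP tumors, few CMV-only peaks passed the test of liver metastases against lung tumors. An adjusted p was given for 19906 of them in the authors' deposited table, and of these 4 were raised (0.0201%), against 0.0752% of all peaks tested, and 33 were lowered (0.166%), against 0.779%. An adjusted p was missing for 5923 members (22.9%), which make up 66.4% of all merged peaks without one; in the lowest decile of mean count it was missing for 83.4% of members. The median log2 fold change was 0.05 (quartiles -0.49 and 0.59), against 0.01 over all merged peaks. The median SE was 0.91, against 0.52, so that at a typical member a log2 change under 1.79 stays below the limit of an unadjusted test. A p under 0.05 before adjustment was reached by 1372 members (5.31%), against 9.62% of all peaks tested. In the test against 0.5, 1 member was lowered and 0 raised, where 0.0580% of all peaks tested were lowered and 0 raised. The rule used 14 of the 18 libraries of this comparison, in which no summit was called at these sites.

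Among the 33 members lowered in CGRP liver metastases the median change was -3.17 (median SE 0.78), and 25 of them held a mixed-pool summit. In the CMV comparison 12 of the 33 were raised, none was lowered, and their median was 1.40. Of all CMV-only peaks tested 65.1% were raised and 0.345% lowered, and the median over CMV-only peaks was 2.53. Of all 819 peaks lowered in CGRP liver metastases, 83 were raised and 383 lowered in the CMV comparison. The members with the largest losses were chr1:36827763-36828263, chr10:52877494-52877994 and chr8:43249097-43249597, at -4.52 (SE 0.97), -4.30 (SE 0.98) and -4.13 (SE 0.89) in the authors' deposited table. Between Nfib-amplified and not amplified CMV libraries, the authors' deposited table gave these 3 peaks 1.31, 0.52 and 1.72, with adjusted p of 0.2101, 0.648 and 0.06439.

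Of the 4 members raised in CGRP liver metastases, 3 were also raised in Nfib-amplified CMV libraries, a share near the 65.1% of all CMV-only peaks. Of all 79 peaks raised in CGRP liver metastases, 20 were raised and 18 lowered in the CMV comparison. The largest member was chr15:43236365-43236865, to which the authors' deposited table gave a CGRP change of 3.91 (SE 0.98, adjusted p = 0.01524) and a CMV change of 3.37 (SE 0.91, adjusted p = 0.001113). The peak at chr14:72980100-72980600 followed in the authors' deposited table with a CGRP change of 2.71 (SE 0.77) and a CMV change of 0.96 (SE 0.72, adjusted p = 0.2731). At chr3:148027300-148027800, the authors' deposited table gave 2.31 (SE 0.64) in the CGRP and 2.44 (SE 0.63) in the CMV comparison.

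**Figure D5:**
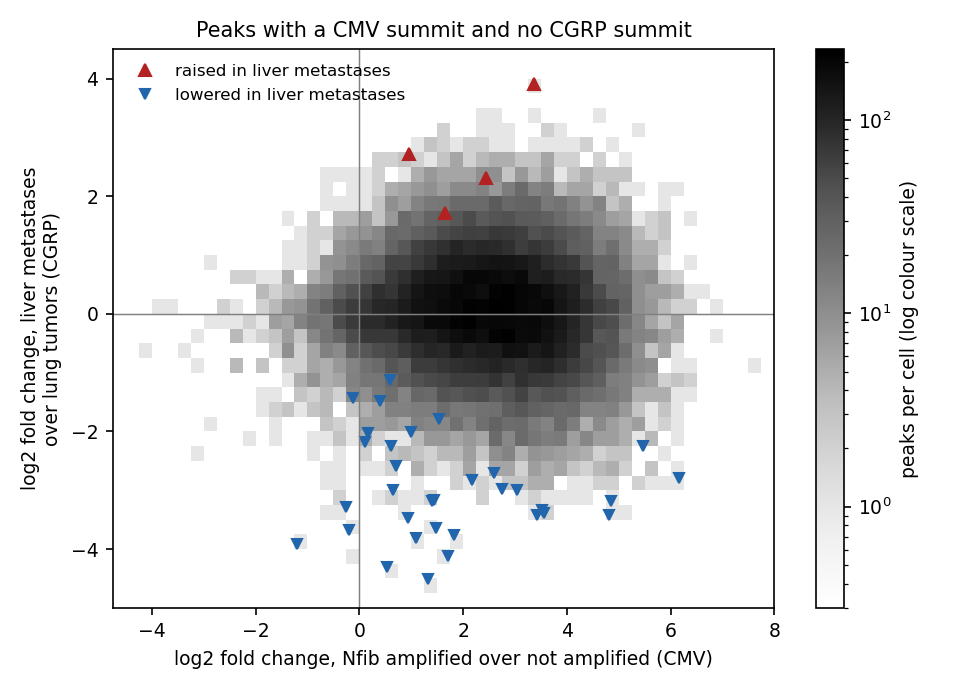
CMV-only peaks by the CMV log2 fold change (Nfib amplified over not amplified, x axis) and the CGRP log2 fold change (liver metastases over lung tumors, y axis); the shade gives the number of peaks per cell of 0.25 by 0.25 on a log scale. The cloud centres near 2.53 and 0.05; triangles mark the 4 members raised and the 33 lowered in CGRP liver metastases.

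The change itself differed between the comparisons at many members. By a two-sided z test of the CMV minus the CGRP log2 fold change, adjusted by Benjamini-Hochberg over all merged peaks, 8630 of 25814 members had a positive difference (33.4%), against 17.8% of all peaks tested. A negative difference was called for 32 (0.124%), against 5.62%. Among the 8630, 8436 were themselves raised in Nfib-amplified libraries, and the median difference was 4.01 (median SE 1.24). With each comparison centred on its median, 5651 members had a positive difference (21.9%) and 132 a negative one (0.511%), against 9.13% and 15.8% of all peaks tested. The z test takes the estimates as independent, although both tables carry the same mean count. The comparisons share no library, but differ in vector, tissue and preparation batch as well as in the contrast.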

How the data were processed

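ATAC-seq was read from 48 libraries, 30 with Ad-CMV-Cre and 18 with Ad-CGRP-Cre. Per the submitters' processing notes, the tools include Bowtie2, MACS2 and DESeq2, and the build is mm9. The sources used here do not give how reads were trimmed, deduplicated and shifted for Tn5, how the merged list was filtered, or the covariates. The deposited summit scores are read here as −log10 q-values. Their lowest value, 1.30 in each pool, fits a cutoff on a −log10 scale and cannot by itself tell q-values from p-values. In the authors' comparison tables, the mean count is a deposited signal, the log2 fold changes and SEs are log2 values, and the Wald statistics are scores, per the file headers; adjusted and unadjusted p-values were deposited beside them, and a second deposited p-value tests against an absolute log2 fold change of 0.5. Values per library are not used here: 0 such columns were read, and the spread behind the p-values, between libraries, may be technical.

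Summits were assigned to peaks by position, 250 bp either side of the centre. A peak was called raised or lowered at the authors' adjusted p under 0.05; peaks without one were left out of the shares. The difference of the comparisons was tested by a z test from both SEs, added in squares, and counting and test were tested on simulated data. Coordinates are 1-based. No annotation of mm9 was used, so no gene is named and no sequence printed. Named sites are the 5 raised and 5 lowered by largest change in the CMV comparison at a mean count of at least the tested median, 3 in each direction of the CGRP comparison, the 3 highest scores, the 3 longest runs and the 5 windows with the largest share. Outside this rule, and chosen after their values were seen, are the other runs tied in length with the third, the windows with the most members and the member with the highest mean count. The members and lists were chosen with earlier results of these data known. Tools were Python 3.11.15, matplotlib 3.10.9, scipy 1.17.1, pandas 2.3.3 and numpy 2.4.6.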

Additional observations from a re-analysis of the deposited data

Results flagged for a closer look

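The change differed between the comparisons, by the z test of the CMV minus the CGRP log2 fold change, at 8630 CMV-only peaks with a positive and at 32 with a negative difference. These are 33.4% and 0.124% of members, against 17.8% and 5.62% of all peaks tested. With each comparison centred on its median, 5651 members (21.9%) had a positive and 132 (0.511%) a negative difference, against 9.13% and 15.8% of all peaks tested. Among the named sites, the 5 most raised in Nfib-amplified libraries differed by 8.35 (chromosome 3 from 74250093), 6.59 (chromosome 14 from 79582960), 7.50 (chromosome 2 from 112634472), 7.71 (chromosome 13 from 4330747) and 6.20 (chromosome 12 from 79199686). Of the lowered sites, 3 differed, by -1.34 (chromosome 7 from 54213084), -1.76 (chromosome 15 from 37363176) and -1.24 (chromosome 8 from 24290254). The 3 sites with the largest losses in CGRP liver metastases differed by 5.83 (chromosome 1 from 36827763), 4.82 (chromosome 10 from 52877494) and 5.84 (chromosome 8 from 43249097). Of the sites with the highest CMV scores, both on chromosome 2 differed, by 4.68 (from 43672653) and 4.27 (from 134099451). The site with the highest mean count, on chromosome 14 from 123381770, differed by 1.17. The raised and lowered sites were chosen by the same estimates that the z test compares. Their differences are therefore largely set by the choice and stand as a description only.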

How the results depend on the processing

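Of 61 values recomputed under an alternative, 35 kept their value within 1.5 times (counts) or within the 95% interval of the share or median, and 26 moved. A reversal was defined only for the sign of the median log2 fold change, which stayed positive under each alternative computed for it. Leaving out the chromosomes 18 and X, an alternative chosen after seeing the data, moved the share with a mixed-pool summit to 68.6% and the median mean count to 10.8, and none of the other 8 values computed. With only CMV summits of a score of at least 5, that share was 76.1%, 43 peaks were lowered in the CMV comparison, the median log2 fold change was 2.79 and the median mean count 12.2. With the top 100000 summits of each pool, 13009 of the 20766 peaks so chosen were CMV-only by the rule; the mixed share was 89.6%, 27 were lowered, the median change was 2.76, the median mean count 16.5 and the median distance to the nearest peak 5659 bp. At an adjusted p under 0.01, 39 were lowered in Nfib-amplified libraries, and CGRP liver metastases had 0 raised and 10 lowered; the test against 0.5 gave 23, 0 and 1. A mean count of at least 20 was reached by 4711 members. Of these, 4137 were raised and 35 lowered in the CMV comparison, and 1 and 10 in the CGRP comparison. In the sixth decile (mean count 21.2 to 27.9), 88.7% of CMV-only peaks and 29.2% of the other merged peaks were raised in the CMV comparison. At mean counts from 20 up, 3048 members differed between comparisons, the median change was 3.39 and the median distance to a neighbor of that count 15657 bp. With centring, 307 were lowered in the CMV comparison (1.19%), against 25.5% of all peaks tested. Under Benjamini-Yekutieli adjustment 2830 differed. The shares of all peaks at an adjusted p under 0.01, at mean counts from 20 up and under this adjustment are not given here. The lower counts at a mean count of at least 20 come with fewer peaks tested; the cause of the other moves was not tested. No paired analysis was possible because the tables hold no value per library; for the same reason no library could be left out, and depth limits cannot be stated.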
